A study of Mus musculus with 8 samples.

Results

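Expression of 29 genes of sterol and fatty acid synthesis in the vagal region of the mouse embryo was compared between embryos that carry a mutation of Rdh10 and wild type embryos. The genes were chosen by name: 7 act in the mevalonate branch, from acetoacetyl-CoA to farnesyl diphosphate; 11 lead from squalene to cholesterol; 5 regulate the SREBP transcription factors or carry sterol; and 6 make or desaturate fatty acids. All 29 were found among the 55421 genes of the deposited table, and all 29 passed the filter on low values that left 15717 genes for testing. RNA sequencing was done on 4 samples from Rdh10(trex/trex) mutants, called trex, and on 4 wild type samples, called wt, all taken at embryonic day 9.5 from the stretch beside somites 1 to 7. Rdh10 encodes a retinol dehydrogenase that acts in the making of retinoic acid. No label gives the number of embryos behind a sample or its litter, and none describes the trex allele or the strain. All p-values here are therefore set by how far these samples spread, which could be technical.

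Animal cells build cholesterol from acetyl-CoA through mevalonate, isoprenoid diphosphates, squalene and lanosterol, and build saturated fatty acids from acetyl-CoA through malonyl-CoA. Both routes are driven by the SREBP transcription factors, which sit in the endoplasmic reticulum with the escort protein SCAP and are held there by INSIG proteins while sterol is plentiful. When sterol falls, SREBP moves to the Golgi, is cut and enters the nucleus, where it binds sterol regulatory elements beside CCAAT boxes bound by NF-Y and GC boxes bound by Sp1. In the embryo, cholesterol serves membranes and is attached to Hedgehog proteins.

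The stretches upstream of 6 of these genes are shown so that the letters bound by SREBP and its partner NF-Y can be seen beside the values: the 5 with the largest differences between genotypes, and Fasn as the one with the smallest, among the 16 genes with at least 200 bases left once bases inside the annotated gene were removed. They come from RefSeq on GRCm38.p6 and read 5′ to 3′ on the strand of the gene, and end at the base before the start that RefSeq gives, or before the GENCODE gene where that begins further upstream; the RefSeq start can differ from the gene coordinates given with the values, which are GENCODE's. Capitals mark TCACNCCAC (a sterol regulatory element), CACGTG (an E-box) and CCAAT (the NF-Y box). Each was searched on both strands, so that ATTGG is CCAAT on the other strand. The stretches of Acat2 and Cyp51 as shown hold none of the 3. In Cyp51, a CCAAT that begins 29 bases before the RefSeq start was removed with the bases inside the annotated gene.
Hmgcs1: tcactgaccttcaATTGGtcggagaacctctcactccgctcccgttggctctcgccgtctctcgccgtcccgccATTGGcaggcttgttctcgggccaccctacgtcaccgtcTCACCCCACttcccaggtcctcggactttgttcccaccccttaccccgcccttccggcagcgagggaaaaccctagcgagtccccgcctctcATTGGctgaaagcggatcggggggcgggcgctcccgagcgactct
Insig1: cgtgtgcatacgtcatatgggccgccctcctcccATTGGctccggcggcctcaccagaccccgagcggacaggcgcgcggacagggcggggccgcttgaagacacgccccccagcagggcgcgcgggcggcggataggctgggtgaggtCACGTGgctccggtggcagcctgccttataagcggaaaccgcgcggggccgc
Acat2: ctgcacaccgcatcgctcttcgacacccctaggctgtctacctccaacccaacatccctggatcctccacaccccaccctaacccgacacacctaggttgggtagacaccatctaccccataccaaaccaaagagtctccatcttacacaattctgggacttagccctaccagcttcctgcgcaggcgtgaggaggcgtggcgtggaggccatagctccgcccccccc
Cyp51: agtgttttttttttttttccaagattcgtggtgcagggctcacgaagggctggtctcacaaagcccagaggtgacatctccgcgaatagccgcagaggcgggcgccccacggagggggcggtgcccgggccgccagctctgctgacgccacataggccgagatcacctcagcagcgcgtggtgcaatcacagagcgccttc
Nsdhl: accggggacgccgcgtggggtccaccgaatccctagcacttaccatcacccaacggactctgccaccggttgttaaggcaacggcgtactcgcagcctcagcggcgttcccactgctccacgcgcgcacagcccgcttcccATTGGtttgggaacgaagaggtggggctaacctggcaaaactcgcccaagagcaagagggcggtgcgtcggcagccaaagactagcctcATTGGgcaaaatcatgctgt
Fasn: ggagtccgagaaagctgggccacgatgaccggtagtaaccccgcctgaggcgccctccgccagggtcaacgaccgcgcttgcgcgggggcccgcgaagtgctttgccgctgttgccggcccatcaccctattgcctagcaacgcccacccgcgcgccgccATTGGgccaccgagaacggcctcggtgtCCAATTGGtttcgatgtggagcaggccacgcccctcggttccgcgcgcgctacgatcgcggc
The Hmgcs1 stretch lies at chr13:119690101-119690350 on the plus strand, Insig1 at chr5:28071162-28071362 on the plus strand and Acat2 at chr17:12960748-12960975 on the minus strand. Cyp51 lies at chr5:4104747-4104947 on the minus strand, Nsdhl at chrX:72918271-72918520 on the plus strand and Fasn at chr11:120824548-120824797 on the minus strand. Matches were then counted in the whole RefSeq windows of 300 bases, 250 before the start and 50 after it, which 22 of the 29 genes have. A gene with several windows was counted when any of them matched, here and among tested genes. The shares of all windows are per window and so are not a like measure. CCAAT was present in 18 of these 22, or 81.8%, beside 37.4% of the 32851 windows of all genes and 43.0% of the 10834 tested genes that have one. GGGCGG, the Sp1 box, was present in 19 of 22, beside 35.7% of all windows and 69.1% of tested genes. TCACNCCAC was present only in Hmgcs1 of the 22, beside 1.24% of all windows and 1.43% of tested genes. CACGTG was present in 5 (Hsd17b7, Sc5d, Dhcr7, Scap and Insig1), beside 7.15% of all windows and 11.7% of tested genes. ACGTG, the core letters bound by hypoxia-inducible factors, overlaps CACGTG and was present in the same 5 genes, or 22.7%, beside 19.6% of all windows and 29.1% of tested genes. A match is a string of letters and not a shown binding site, and lack of a match does not show that a site is absent.

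Depth ran from 20928981 to 23648646 recovered reads per library. One library, trex replicate 1, stood apart: its correlation of log2(TPM + 1) with the other 7 was 0.944 to 0.966, while the 21 pairs of the other libraries gave 0.963 to 0.988. It also held the smallest mitochondrial share of TPM, 2.61% beside 4.50% to 7.95% elsewhere. Trex replicate 2 correlated with trex replicates 3 and 4 at 0.981 and 0.977, and with the 4 wt libraries at 0.976 to 0.981. Of the cell type markers, the 11 neuron genes had 9 called lower and 0 higher in trex, with mean log2(TPM + 1) of 3.14 to 4.36 in trex and 5.18 to 5.91 in wt. Neural tube progenitor markers had 4 of 9 called lower, crest markers 2 of 8 lower and 2 higher, Hox genes of groups 1 to 5 had 6 of 10 called lower, somite markers 2 of 8 higher, foregut markers 1 of 8 in each direction and endothelial markers 2 of 6 higher. None of the 9 heart, 7 erythroid, 11 tested liver and yolk sac or 2 tested macrophage markers was called. The erythroid mean was 5.98 in trex replicate 1 and 7.22 to 8.31 elsewhere, and the heart, liver and yolk sac means varied between libraries of both groups. Y-linked genes were detected in wt replicates 2 and 3 alone (162 and 158 TPM, at most 0.0662 elsewhere). With sex as a covariate, set by these genes, the genotype difference therefore rests on the 4 trex libraries against wt replicates 1 and 4. Rdh10 itself measured 106, 66.2, 62.7 and 69.0 TPM in trex and 41.0, 36.3, 40.3 and 37.6 TPM in wt (log2 difference 0.92 ± 0.15 (SE), limma adjusted p = 0.0126), so its transcript level was higher in the mutants, and it does not check the labels; the call was lost with sex as a covariate and without wt replicate 2 (adjusted p up to 0.114). The part of these libraries' makeup and quality in the results below was not tested, and in bulk samples fewer cells of a type and less RNA per cell cannot be told apart.

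None of the 29 genes passed the test between genotypes in either direction (limma on log2(TPM + 1), Benjamini-Hochberg adjusted p under 0.05), where 8.71% of all tested genes were called, 4.94% higher and 3.77% lower in trex. At an unadjusted p under 0.05, 3 genes were lower (Acat2, Idi1 and Ebp) and 0 higher, beside 11.6% and 17.4% of all tested genes. Limma voom on the recovered reads called 0 of the 29, where it called 643 genes higher and 820 lower among all tested genes. It had 4 of the 29 lower at an unadjusted p under 0.05, for which no share over all tested genes was computed. The differences nevertheless leaned 1 way. They were below 0 in 26 of 29 genes, beside 43.3% of all tested genes, and their median was -0.23, beside 0.04. The lean came largely from 1 library. Trex replicate 1 was the lowest of the 8 libraries for 27 of the 29 genes, beside 23.1% of all tested genes, and the highest for 0, beside 38.2%; the exceptions were Srebf1 and Acaca. It was also the lowest for 9 of 11 neuron, 7 of 7 erythroid, 5 of 9 heart and 2 of 2 tested macrophage markers. It was the lowest for 3 of 9 neural tube progenitor, 2 of 8 somite and 2 of 8 foregut markers. It was so for 2 of 11 liver and yolk sac, 1 of 8 crest, 1 of 10 Hox and 0 of 6 endothelial markers. It lay under 60% of the wt mean for 15 genes, beside 8.87%, while trex replicates 2, 3 and 4 did so for 0 genes each, beside 6.35%, 4.48% and 5.40%.

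**Figure D1:**
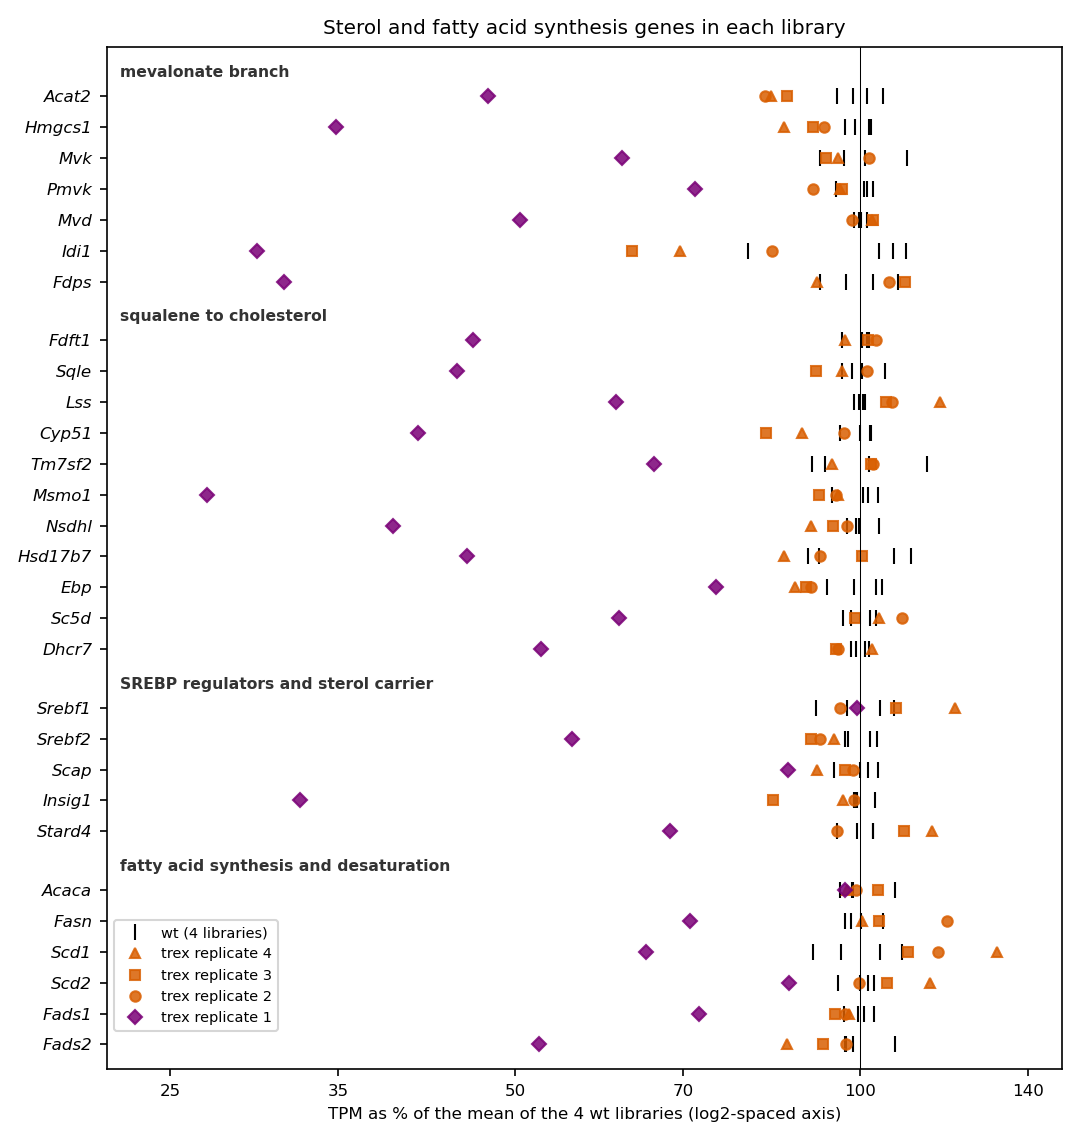
TPM of each of the 29 genes in each library, as a percent of the mean of the 4 wt libraries, on a log2-spaced axis; black ticks are the wt libraries, orange symbols trex replicates 2 to 4 and the purple diamond trex replicate 1. The diamond lies left of every other symbol for 27 genes, down to 26.9% for Msmo1, and among the other symbols only for Srebf1 and Acaca.

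Summed over the 29 genes, TPM came to 2045 in trex replicate 1, to 3165 to 3260 in trex replicates 2 to 4 and to 3218 to 3281 in wt. The median of the 29 log2 distances from the wt mean was -0.83 in trex replicate 1 and -0.04, -0.05 and -0.06 in trex replicates 2, 3 and 4. The other 3 trex libraries lay close to wt as a set. Trex replicates 1 to 4 were below every wt library for 27, 9, 13 and 13 of the 29 genes, beside 31.6%, 26.0%, 25.2% and 30.9% of all tested genes. They were above every wt library for 0, 5, 7 and 8 genes, beside 46.9%, 31.0%, 35.2% and 34.7%. Each wt library, set against the other 3, was below them for 5 to 9 genes, beside 19.2% to 31.8%.

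**Figure D2:**
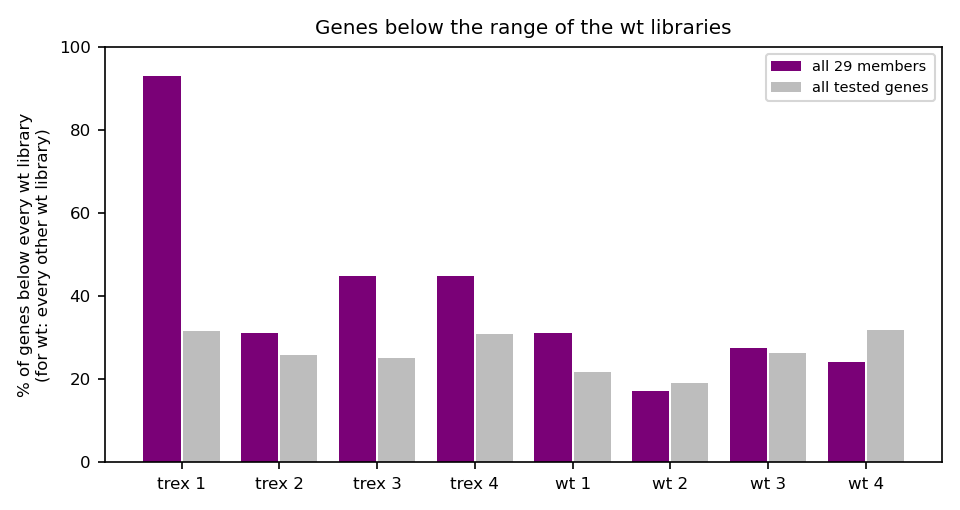
Percent of the 29 genes (purple bars) and of all 15717 tested genes (grey bars) that lie below every wt library in each library; a wt library is set against the other 3. The purple bar of trex replicate 1 stands for 27 of 29 genes against a grey bar of 31.6%, and the other 7 libraries for 5 to 13 genes.

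The mevalonate branch held 3 of the 8 largest differences. Acat2 (ENSMUSG00000023832, chromosome 17, 12942890 to 12960747 on mm10), which joins acetyl-CoA units to acetoacetyl-CoA, measured 76.1, 133, 139 and 135 TPM in trex and 169, 163, 159 and 154 TPM in wt. All 4 trex libraries lay below all 4 wt libraries, and trex replicate 1 lay far below the other 3. The means were 121 ± 29.8 and 161 ± 6.35 TPM (SD, n = 4), and the log2 difference was -0.45 ± 0.18 (SE; 95% interval -0.85 to -0.05; limma adjusted p = 0.133). Hmgcs1 (ENSMUSG00000093930, chromosome 13, 119690379 to 119708260), the synthase that makes HMG-CoA, measured 115, 307, 301 and 284 TPM in trex and 327, 338, 320 and 337 TPM in wt. The groups again did not overlap, but replicate 1 was at 34.9% of the wt mean and the mean of the other 3 at 89.9%. Its log2 difference was -0.49 ± 0.28 (95% interval -1.14 to 0.15; limma adjusted p = 0.276).

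Idi1 (ENSMUSG00000058258, chromosome 13, 8885501 to 8892451), the isomerase of isopentenyl diphosphate, had low TPM values. It measured 1.04, 2.93, 2.21 and 2.43 TPM in trex and 3.62, 3.82, 2.79 and 3.73 TPM in wt. Trex replicate 2 lay inside the wt range and the other 3 trex libraries below it. The log2 difference was -0.55 ± 0.21 (95% interval -1.02 to -0.07; limma adjusted p = 0.129); it was -0.75 with a pseudocount of 0.1 and -0.25 with 5. The mean of trex replicates 2 to 4 was at 72.2% of the wt mean, the lowest of the 29. The kinases and decarboxylase that turn mevalonate into isopentenyl diphosphate were nearer wt. Mvk, mevalonate kinase, had a log2 difference of -0.20 (limma adjusted p = 0.38), Pmvk, phosphomevalonate kinase, of -0.18 (0.23) and Mvd, the decarboxylase, of -0.23 (0.48). In these 3 genes trex replicate 1 was at 62.0%, 71.7% and 50.5% of the wt mean and trex replicates 2 to 4 at 97.0%, 94.4% and 101%. Fdps, which makes farnesyl diphosphate, was at 31.4% of the wt mean in trex replicate 1 and 102% in the other 3 (log2 difference -0.32, limma adjusted p = 0.502).

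Some of these transcripts share sequence with other genes, and how multi-mapping reads were counted is not given. Of windows of 50 bases along the longest coding transcript, 86.4% of Fdps also occur in Gm43738 or another gene, 45.9% of Acat2 in such transcripts, chiefly Acat3, and 30.5% of Idi1, chiefly Gm13502. The levels of Fdps, Acat2 and Idi1 are uncertain for that reason, as is that of Acaca, with 52.6%. Fdft1 shares 18.3% of its exon length with Ctsb on the opposite strand (up to 85.8 TPM) and is uncertain too, and Tm7sf2 12.1% with Vps51 on the same strand (up to 31.0 TPM).

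The 11 enzymes from squalene to cholesterol all had log2 differences below 0 in the fit of 8 libraries, and 7 of 11 did without trex replicate 1, which was the lowest of 8 in each. Msmo1 (ENSMUSG00000031604, chromosome 8, 64718139 to 64733792), the sterol methyl oxidase that begins removal of the methyl groups at carbon 4, measured 17.5, 61.9, 59.8 and 62.1 TPM in trex and 65.9, 67.3, 61.4 and 65.3 TPM in wt. Replicate 1 was at 26.9% of the wt mean, the lowest share of the 29, and replicates 2 and 4 overlapped wt. The log2 difference was -0.52 ± 0.37 (95% interval -1.35 to 0.31; limma adjusted p = 0.364). Cyp51 (ENSMUSG00000001467, chromosome 5, 4081145 to 4104746), lanosterol demethylase, measured 53.6, 126, 108 and 116 TPM in trex and 133, 133, 125 and 130 TPM in wt. Only trex replicate 2 entered the wt range, and the log2 difference was -0.44 ± 0.23 (95% interval -0.97 to 0.10; limma adjusted p = 0.246).

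Nsdhl (ENSMUSG00000031349, chromosome X, 72918557 to 72958514), the dehydrogenase of the methyl removal that Msmo1 begins, measured 32.9, 82.0, 79.8 and 76.4 TPM in trex and 84.1, 87.4, 82.0 and 83.5 TPM in wt. Replicate 2 reached the lowest wt library and the others lay below it (log2 difference -0.40 ± 0.26, limma adjusted p = 0.336). Hsd17b7 (ENSMUSG00000026675, chromosome 1, 169949535 to 169969241), the ketoreductase of that removal, measured 12.2, 24.8, 27.0 and 23.1 TPM in trex and 24.2, 29.8, 24.8 and 28.8 TPM in wt. Apart from replicate 1 and, slightly, replicate 4, the groups overlapped (log2 difference -0.34 ± 0.22, limma adjusted p = 0.319). Ebp, the sterol isomerase, was the enzyme of these 11 least set apart in replicate 1, at 74.8% of the wt mean: 19.9, 24.1, 23.8 and 23.3 TPM in trex lay wholly below 24.9, 27.8, 27.4 and 26.2 TPM in wt. Its log2 difference was -0.22 ± 0.08 (95% interval -0.39 to -0.04; limma adjusted p = 0.106). Ebp lies on chromosome X, and 27.8 and 27.4 TPM were wt replicates 2 and 3, where alone Y-linked genes were detected. With sex as a covariate the difference was -0.16 (limma adjusted p = 0.418).

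The other 6 enzymes had means of 96.4% to 110% of the wt mean in trex replicates 2 to 4. Fdft1, squalene synthase, was at 46.0% of the wt mean in trex replicate 1 and 101% in the mean of the others. Sqle, squalene epoxidase, stood at 44.4% and 96.4%, Sc5d, the sterol desaturase, at 61.6% and 104%, and Dhcr7, which makes the last reduction in one route to cholesterol, at 52.7% and 97.8%. Tm7sf2, a sterol reductase, stood at 66.1% and 99.8%. Lss, which closes squalene oxide to lanosterol, stood at 61.2% and 110%, and its trex replicates 2 to 4 (24.0, 23.7 and 26.4 TPM) all lay above wt (22.2 to 22.7 TPM). Limma adjusted p-values of these 6 ran from 0.369 for Sqle to 0.807 for Lss.

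The regulators differed among themselves. Insig1 (ENSMUSG00000045294, chromosome 5, 28071363 to 28078662), a retention protein of SCAP and itself an SREBP target, measured 16.9, 51.52, 43.8 and 50.4 TPM in trex and 51.6, 51.55, 53.7 and 51.9 TPM in wt. Trex replicates 2 and 4 lay just under wt, replicate 3 lower and replicate 1 at 32.4% of the wt mean; the log2 difference was -0.47 ± 0.31 (95% interval -1.17 to 0.23; limma adjusted p = 0.333). Srebf2, the gene of the SREBP best known for cholesterol genes, measured 75.1, 124, 122 and 127 TPM in trex and 131, 137, 139 and 130 TPM in wt. Its groups did not overlap (log2 difference -0.29 ± 0.15, limma adjusted p = 0.242). Srebf1, the gene of the SREBP best known for fatty acid genes, measured 52.7, 51.0, 57.0 and 64.2 TPM in trex and 55.2, 51.7, 56.8 and 48.5 TPM in wt. Replicate 1 was not set apart there, and the log2 difference was 0.08 (95% interval -0.11 to 0.27; limma adjusted p = 0.542). Scap was at 86.4% of the wt mean in trex replicate 1 and 95.7% in the other 3 (limma adjusted p = 0.293), and Stard4, a sterol carrier, at 68.2% and 107% (0.777).

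The 6 fatty acid genes had a median log2 difference of -0.03, ranging from -0.32 for Fads2 to 0.04 for Scd1. Acaca, acetyl-CoA carboxylase, measured 12.0, 12.3, 12.8 and 12.1 TPM in trex and 11.9, 12.2, 12.2 and 13.3 TPM in wt, with a log2 difference of -0.01 (95% interval -0.17 to 0.15; limma adjusted p = 0.945). Scd2, the stearoyl-CoA desaturase that was the most abundant of the 29, measured 822, 946, 1001 and 1091 TPM in trex and 906, 976, 949 and 963 TPM in wt. Replicate 1 was the lowest and replicates 3 and 4 the highest (log2 difference 0.02, 95% interval -0.17 to 0.21; limma adjusted p = 0.906; the sign turned under each other scaling of TPM). Scd1, its close relative, measured 46.4, 83.4, 78.5 and 93.9 TPM in trex and 64.9, 68.7, 74.3 and 77.5 TPM in wt, so that replicate 1 lay below wt and the other 3 above it. Fasn, fatty acid synthase, was at 71.0% of the wt mean in trex replicate 1 and 108% in the others. Of the polyunsaturated fatty acid desaturases, Fads1 stood at 72.3% and 96.7% and Fads2 at 52.4% and 92.1% (limma adjusted p = 0.304 and 0.252).

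By role, the median level in trex replicate 1 was 47.3% of the wt mean for the mevalonate branch, 46.0% for squalene to cholesterol, 68.2% for the regulators and sterol carrier and 71.6% for the fatty acid genes. In trex replicates 2 to 4 the medians were 94.4%, 96.4%, 95.7% and 103%. Differences between these roles were not tested. The 8 genes with the largest differences were Idi1, Msmo1, Hmgcs1, Insig1, Acat2, Cyp51, Nsdhl and Hsd17b7, of which 7 are sterol enzymes and 1 a regulator.

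Without trex replicate 1, 2 of the 29 genes were lower in trex at the same threshold, where 4.59% of all tested genes were called lower and 5.94% higher. Acat2 fell by a log2 difference of -0.25 ± 0.04 (limma adjusted p = 0.0122, 3 trex against 4 wt libraries), and Hmgcs1 fell by -0.15 ± 0.04 (limma adjusted p = 0.0483). Ebp and Cyp51 had -0.16 each (adjusted p = 0.107 and 0.104), and Idi1 -0.35 (0.141). Scd1 and Lss lay above wt, by 0.25 (95% interval 0.07 to 0.44; limma adjusted p = 0.0833) and 0.13 (0.166). In that fit 17 of the 29 differences were below 0, beside 44.9% of all tested genes, and their median was -0.05. With the same library left out, 21 of 29 were below 0 under median-of-ratios rescaling and 22 of 29 under quantile normalization (medians -0.07 each), with 10 and 8 lower and 1 higher at an unadjusted p under 0.05, beside 6 lower and 2 higher without rescaling. Over all tested genes the medians also moved, to 0.0052 and -0.0083 from 0.023, and 883 and 929 were called lower, beside 722. Shares of all tested genes below 0 under rescaling, or lower at an unadjusted p without trex replicate 1, were not computed. The replicates 2 to 4 were below all wt libraries for 5 genes, beside 11.2%, and above them for 2, beside 14.6%. With all 4 trex libraries, 5 genes did not overlap from below (Acat2, Hmgcs1, Ebp, Srebf2 and Insig1), beside 8.95%, and 0 from above, beside 12.9%. Array weights gave trex replicates 1 to 4 weights of 0.139, 0.392, 5.50 and 0.910. With them 4 genes were called lower (Acat2, Idi1, Cyp51 and Ebp), beside 13.8% of all tested genes and 35.1% called in either direction.

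**Figure D3:**
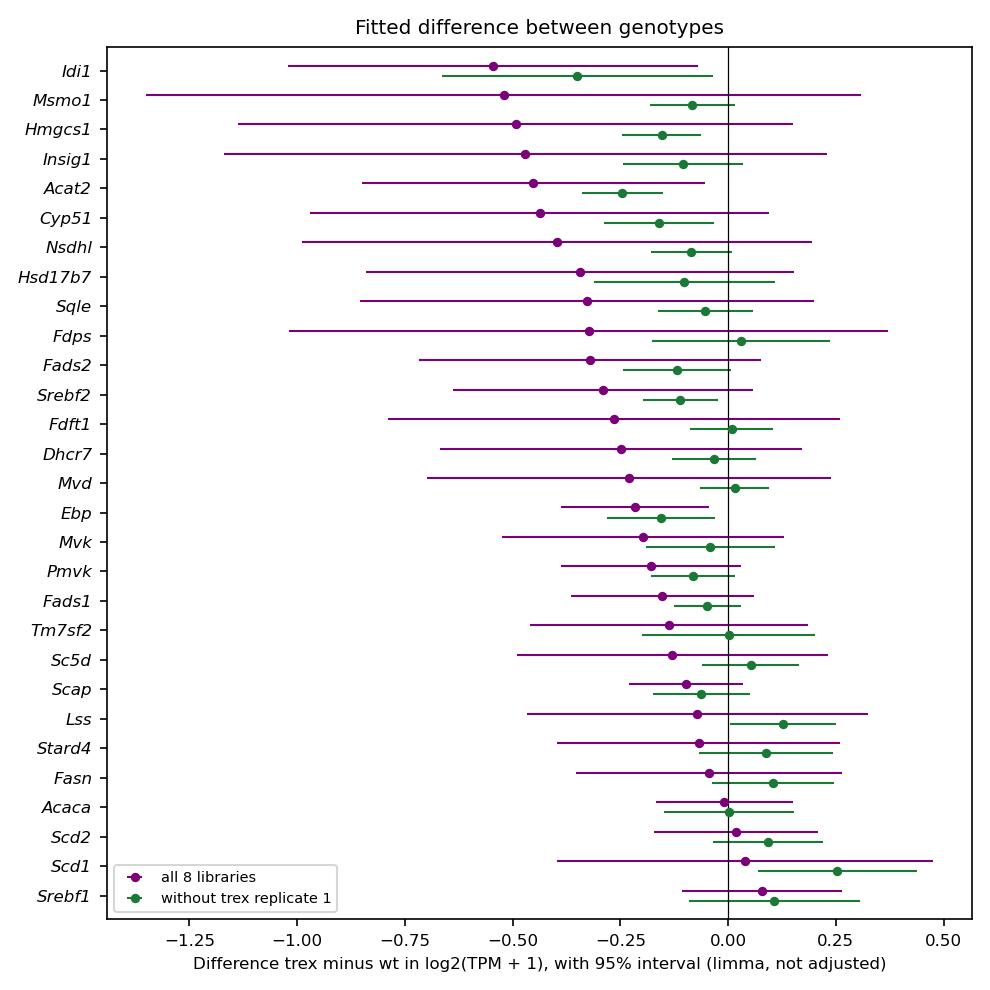
Difference between genotypes (trex minus wt, log2(TPM + 1)) for each of the 29 genes, with unadjusted 95% intervals from limma; purple is the fit of all 8 libraries and green the fit without trex replicate 1. The wide purple intervals reach from -1.35 to 0.31 for Msmo1, and without replicate 1 the differences of Acat2 and Hmgcs1 are -0.25 and -0.15.

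Other genes of the pathway were counted by list. Of 10 tested other sterol and isoprenoid enzymes, 0 were called. Trex replicate 1 was the lowest of 8 for 7 of them, beside 23.1% of all tested genes. It was the highest for the other 3, beside 38.2%. Of 9 tested other SREBP and LXR regulators 0 were called; Insig2 measured 42.3, 24.1, 30.9 and 38.2 TPM in trex and 23.5 to 25.8 TPM in wt (log2 difference 0.43, limma adjusted p = 0.11).

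Among 16 genes of sterol uptake, efflux and transport, 2 rose and 0 fell. Soat1, which esterifies cholesterol for storage, measured 90.3, 44.8, 66.1 and 80.6 TPM in trex and 33.3, 34.8, 33.2 and 38.2 TPM in wt. Every trex library lay above every wt library, the means being 70.5 ± 19.8 and 34.9 ± 2.32 TPM, a 2.02-fold difference (log2 difference 0.95 ± 0.19, limma adjusted p = 0.0231). Vldlr, a lipoprotein receptor that takes up lipid and binds reelin, measured 77.1, 12.9, 31.1 and 45.0 TPM in trex and 8.01, 8.58, 7.62 and 8.68 TPM in wt. The groups did not overlap and the fold was 5.05 (log2 difference 1.95 ± 0.44, limma adjusted p = 0.0328), with replicate 1 highest and replicate 2 lowest of the trex libraries. Without trex replicate 1 both stayed called (adjusted p = 0.0272 and 0.0302). Soat1 missed the threshold in 6 of 24 alternative settings (sex as a covariate, or leaving out trex replicate 3 or 4 or wt replicate 1, 2 or 3; highest adjusted p = 0.158), and Vldlr in 9 of 24 (the same, and no filter, the liver covariate or leaving out wt replicate 4; highest 0.181), with no change of direction. Abca1, which exports cholesterol, measured 8.99 to 13.1 TPM in trex and 7.64 to 10.5 TPM in wt (limma adjusted p = 0.399).

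Of 30 tested other genes of fatty acid synthesis, elongation and activation, 1 rose and 1 fell. Slc25a1, the mitochondrial citrate carrier that feeds acetyl-CoA to the cytosol, was 1.16-fold higher in trex (log2 difference 0.21, limma adjusted p = 0.0414). Acsl6, an acyl-CoA synthetase abundant in neural tissue, measured 2.26 to 3.12 TPM in trex and 3.59 to 5.70 TPM in wt (log2 difference -0.66, adjusted p = 0.0387). Acly, which cleaves that citrate, and Elovl6, which elongates palmitate, had log2 differences of -0.06 each (limma adjusted p = 0.638 and 0.723). Of 19 tested genes of fatty acid oxidation, 1 fell: Eci1, an isomerase of unsaturated acyl-CoA, measured 20.5, 24.7, 32.1 and 32.0 TPM in trex and 40.3 to 48.0 TPM in wt (log2 difference -0.68, adjusted p = 0.0274). The threshold was missed by Slc25a1 in 17 of 24 settings, every other scaling of TPM included, by Acsl6 in 10 of 23, leaving out trex replicate 1 included, and by Eci1 in 7 of 24. Each of these 3 missed it with sex as a covariate and without wt replicate 1, 2 or 3, with adjusted p-values up to 0.234, 0.224 and 0.174. Over these 5 lists 3 of 84 tested genes rose and 2 fell, shares under the 4.94% and 3.77% of all tested genes. For 33 of the 84, trex replicate 1 was the lowest of 8 libraries, and for 22 the highest, beside 23.1% and 38.2% of all tested genes. By list it was the lowest for 13 of 30 synthesis, 9 of 19 oxidation, 3 of 16 transport and 1 of 9 regulator genes.

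Of 21 genes of low oxygen and glycolysis, 16 rose and 0 fell, among them Tpi1, Gapdh, Ldha, Pfkl, Bnip3 and Aldoa with limma adjusted p-values of 0.0122 to 0.0193. All 6 missed the threshold with sex as a covariate and without wt replicate 2, and Bnip3 and Aldoa also on leaving out wt replicate 1, wt replicate 3 or trex replicate 4. Their highest adjusted p over all settings was 0.135. Over all 21 genes of the list the mean log2(TPM + 1) was 8.29, 6.54, 7.38 and 7.81 in trex replicates 1 to 4 and 6.05 to 6.12 in wt. The 18 sterol enzymes had means of 4.55, 5.51, 5.47 and 5.46 in trex and 5.51 to 5.58 in wt. Over the 4 trex libraries the order of the sterol means was the reverse of that of the low oxygen list, though replicates 2, 3 and 4 lay within 5.46 to 5.51 and replicate 1 far below. Soat1 and Vldlr lay in the same order as the low oxygen list. The part of that list in either result was not tested.

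**Figure D4:**
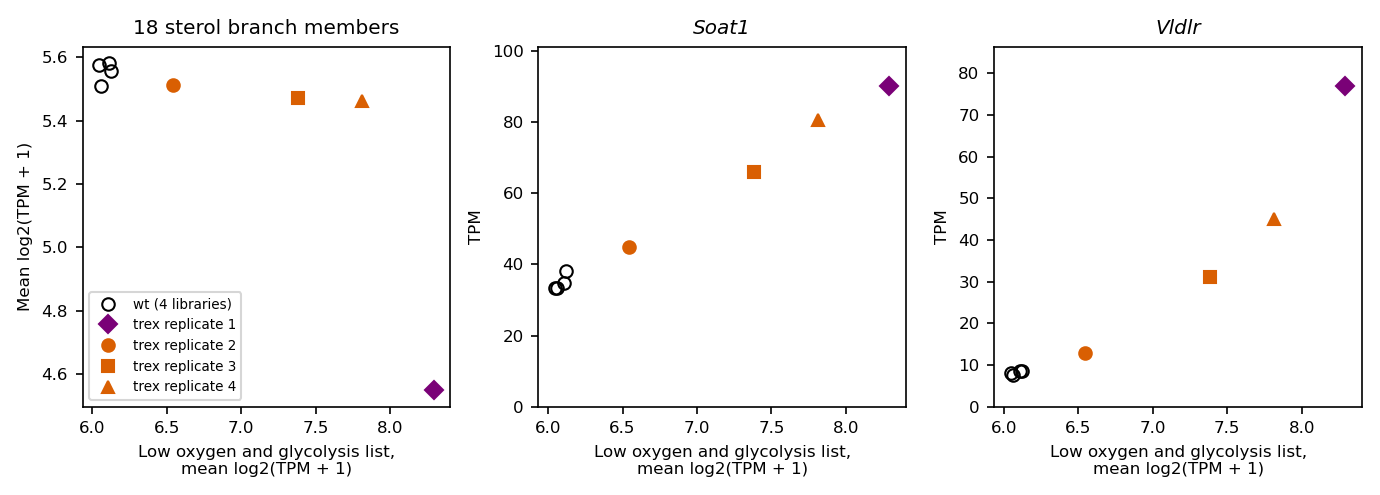
Each point is 1 library, with the mean log2(TPM + 1) of the 21 low oxygen and glycolysis genes on the horizontal axis and, from left to right, the mean log2(TPM + 1) of the 18 sterol branch genes, Soat1 TPM and Vldlr TPM on the vertical axes. The sterol mean is 4.55 in trex replicate 1 and 5.46 to 5.58 elsewhere, with an axis that does not start at 0, while Soat1 and Vldlr are higher at each step from replicate 2 to 3, 4 and 1.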

How the data were processed

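The authors deposited TPM values, in which reads are divided by gene length and by library size, for 8 libraries; each column sums to 1000000. Per the labels' protocols, a TruSeq kit made stranded libraries from poly-A RNA. The submitters' processing notes name CASAVA 1.8.2 and STAR, and mm10 as the build. How reads were counted, with which annotation, strand setting, gene lengths and rule for multi-mapping reads, is not given in the sources used here. Symbols and exonic lengths came from GENCODE M21, on the same assembly, which matched 55240 of 55421 identifiers.

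TPM multiplied by exonic length gave whole reads (within 0.001 read) for 98.7% to 98.9% of low values (up to 200 reads), and 20928981 to 23648646 reads per library. These reads served to state depth and for 1 alternative. Groups were compared with limma 3.58.1 in R 4.3.3 (lmFit, eBayes with a trend) on log2(TPM + 1). The test was two-sided, genotype was the only term, and genes entered it when their TPM averaged 1 or more over the 8 libraries. P-values were adjusted by Benjamini-Hochberg over all 15717 genes and called under 0.05. Differences on this scale understate the change of weakly expressed genes. The step was tested on simulated data with independent noise. These held no library set apart as trex replicate 1 was, so the simulation does not cover that case. Libraries were grouped by the genotype label and numbered by the replicate label.

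The 29 genes, the pathway and marker lists and the tests were chosen with earlier results of these data known. All 29 were named. Values in every library were given for the 8 with the largest differences and for others chosen after their values were seen. Of the other lists, called genes (at most 6 per list by smallest p) were named, and Insig2, Acly, Elovl6 and Abca1 whatever their result; some other genes of that rule are not reported here by name but remain in the counts. Alternatives changed the pseudocount (0.1 or 5), the filter (none, or a mean of 5), the scaling (median-of-ratios, quantile, or TPM left without globin, mitochondrial and sex chromosome genes) or the variance model (no trend, robust, or array weights). Others added the replicate number as a block, sex, or the mean of the liver markers as a term, used limma voom on the recovered reads, or left out each library in turn. Both rescalings together with leaving out trex replicate 1 were added after seeing the data.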

Additional observations from a re-analysis of the deposited data

Results flagged for a closer look

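Among 90 groups of 4 libraries, 14 held a library set apart from the other 3, its gap to them passing Dixon's 95% critical value as a share of the whole range; chance gives about 1 in 20 groups. In 11 of the 14 that library was trex replicate 1. All groups come from the same 8 libraries and are not independent, so the rate of 1 in 20 is no measure of these counts. Such groups were not counted over all tested genes, where trex replicate 1 was the lowest of the 8 libraries for 23.1% and the highest for 38.2%. For 9 of the 29 sterol and fatty acid genes it was set apart below the other trex libraries, at 76.1 TPM for Acat2 (others 133 to 139), 115 for Hmgcs1 (284 to 307), 32.8 for Mvd (63.8 to 66.7), 22.2 for Fdft1 (46.8 to 49.8) and 17.5 for Msmo1 (59.8 to 62.1). The further 4 were Nsdhl at 32.9 TPM (others 76.4 to 82.0), Dhcr7 at 24.4 (44.2 to 47.5), Srebf2 at 75.1 (122 to 127) and Fads1 at 113 (149 to 153). Outside the 29, trex replicate 1 was set apart at 293 TPM for Acly (369 to 378), which was low, and at 106 TPM for Rdh10 (62.7 to 69.0), which was high.

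In the wt group, replicate 3 was set apart for Insig1 at 53.7 TPM (others 51.55 to 51.9), replicate 1 for Fads2 at 298 TPM (269 to 274) and replicate 2 for Bnip3 at 78.8 TPM (61.5 to 62.3).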

How the results depend on the processing

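No gene of the 29 was called higher in trex in any setting, and none lower except with array weights (4 genes), without trex replicate 1 (2) and without it under median-of-ratios rescaling (2) or quantile normalization (2); leaving out 1 library gave 0 to 2. The median difference of the 29 ranged from -0.32 to -0.05 over those omissions. Of all tested genes 1369 were called, beside 694 without the filter, where more genes were tested, 5524 with array weights, 687 with the replicate block, 39 with sex as a covariate and 201 to 2911 on leaving out 1 library (201 without wt replicate 2, 2911 without trex replicate 2). Of the other pathway genes, low oxygen list included, 21 were called, beside 10 without the filter, 51 with array weights, 13 with the replicate block, 0 with sex as a covariate and 0 to 37 on leaving out 1 library. With sex as a covariate, fewer wt libraries (replicates 1 and 4) bear on the genotype difference, since no trex library held the Y-linked genes. The loss of calls there is thus no measure of an effect of sex. The cause of the other shifts was not tested.

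The replicate numbers gave no clear pairing of the libraries. Deviations of same-numbered trex and wt libraries correlated at 0.16, -0.02, -0.0045 and 0.25. Trex replicates 1 and 4 correlated best with their own number, and trex replicates 2 and 3 with another. The block called none of the 29.

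Signs turned for genes that were not called, and the cause was not tested. With array weights the log2 differences were Mvd 0.018, Fdps 0.080, Lss 0.078, Tm7sf2 0.027, Stard4 0.10, Acaca 0.034, Fasn 0.044 and Elovl6 0.0072. Without trex replicate 1 they were, under median-of-ratios rescaling, Fdps 0.013, Lss 0.11, Sc5d 0.034, Stard4 0.070, Fasn 0.086, Acly 0.0054 and Elovl6 0.035, and, under quantile normalization, Lss 0.087, Sc5d 0.024, Stard4 0.064, Fasn 0.11 and Elovl6 0.040. Scd1 and Scd2 stood at -0.0028 and -0.024 without globin, mitochondrial and sex chromosome genes, at -0.090 and -0.035 with the liver covariate and at -0.014 and -0.031 by voom. Scd2 also stood at -0.019 under median-of-ratios rescaling and -0.020 under quantile normalization. On leaving out 1 library the ranges were -0.027 to 0.022 for Acaca, -0.098 to 0.024 for Acly, -0.14 to 0.054 for Elovl6, -0.14 to 0.10 for Fasn, -0.37 to 0.0082 for Fdft1, -0.47 to 0.030 for Fdps, -0.17 to 0.13 for Lss, -0.32 to 0.015 for Mvd, -0.21 to 0.052 for Sc5d, -0.080 to 0.25 for Scd1, -0.044 to 0.092 for Scd2, -0.16 to 0.088 for Stard4 and -0.20 to 0.0011 for Tm7sf2. Idi1 and Fdps, at under 10 TPM, had the lowest TPM of the 29, though sequence shared with other genes leaves their levels uncertain.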
